A study of Mus musculus with 10 samples.

Results

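Sod1, the carbonyl reductase genes Cbr1 and Cbr3, and the genes of the enzymes that clear superoxide and peroxide were examined in the hippocampus of Dp1Tyb mice. The set comprised 10 of the 43629 genes in the count table, namely Sod1, Sod2, Sod3, Cbr1, Cbr3, Cat, Gpx1, Gpx4, Prdx2 and Prdx6, chosen by name through their Ensembl identifiers. Of these, 3 lie in the duplicated region of chromosome 16 (Sod1, Cbr1 and Cbr3) and are present in 3 copies in Dp1Tyb mice, whereas the other 7 lie on other chromosomes and are present in 2 copies in both genotypes. All 10 passed the filter on low counts, with between 127 and 8213 reads per gene and library.

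Superoxide dismutases convert the superoxide radical into hydrogen peroxide. Catalase, the glutathione peroxidases and the peroxiredoxins then remove the peroxide, so that the output of one group of enzymes is the substrate of the other. Carbonyl reductases use NADPH to reduce aldehydes, ketones and quinones, among them products of lipid oxidation. SOD1 is encoded on human chromosome 21, and for that reason the balance between superoxide dismutase and peroxide clearance has long been discussed in Down syndrome.

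Gene expression was measured by RNA sequencing of the whole hippocampus of 5 Dp1Tyb and 5 wild-type (WT) mice, 1 library per mouse, labelled as 18 weeks old and of strain C57BL/6J.129P2. The methods give a slightly higher age and repeated backcrossing of all mice to C57BL/6JNimr. Dp1Tyb mice carry the duplication Dp(16Lipi-Zbtb21)1TybEmcf, which spans the region of mouse chromosome 16 from Lipi to Zbtb21, and the methods describe them as males compared with male WT littermates. The duplication is present in every cell. RNA was taken from the whole tissue, so the measurement does not tell cell types apart. Expression is given as CPM, the reads of a gene scaled to a common library size, here with TMM factors.

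Libraries held between 18227684 and 43692270 counts, and neuronal markers were abundant in all of them, with summed levels of 4047 to 4538 CPM in WT and 4460 to 4739 CPM in Dp1Tyb. None of the 8 neuronal markers was at 0 in any library. Choroid plexus content varied widely. The summed level of 12 choroid plexus markers ranged from 443 to 5592 CPM in WT and from 44.0 to 4003 CPM in Dp1Tyb, and was lowest in WT replicate 2, Dp1Tyb replicate 1 and Dp1Tyb replicate 4. Of the 6 astrocyte markers 1 was called higher, Gfap (edgeR, adjusted p = 0.0167), where 1.11% of all tested genes were called in either direction. Its log2 fold change was 0.26, and those of the other astrocyte markers ran from −0.080 to 0.22. The summed astrocyte markers were 3774 to 4504 CPM in WT and 4058 to 4384 CPM in Dp1Tyb. The summed endothelial markers were 210 to 227 CPM in WT and 198 to 209 CPM in Dp1Tyb, with no gene of the 6 called. The part of these differences in the results below was not tested, except that each result on a member was also computed without the 3 libraries of lowest choroid plexus content. In whole tissue, fewer cells of a type and less RNA per cell cannot be told apart.

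The promoter of Sod1 is shown because it held, alone among the promoters of the 10 genes that could be examined, the core of the antioxidant response element. This element, TGACNNNGC, is bound by the oxidant-responsive factor NRF2 and by its competitor BACH1, which is itself encoded in the duplicated region. In RefSeq (GRCm38.p6), windows from 250 bases before to 50 bases after the start of transcription were searched on both strands. Of the 10 genes, 8 had such a window. Sod3 and Prdx6 had none. The 250 bases before the RefSeq start of Sod1, at chr16:90220512-90220761 on the plus strand, read as follows, with the match to the core in capitals.
Sod1: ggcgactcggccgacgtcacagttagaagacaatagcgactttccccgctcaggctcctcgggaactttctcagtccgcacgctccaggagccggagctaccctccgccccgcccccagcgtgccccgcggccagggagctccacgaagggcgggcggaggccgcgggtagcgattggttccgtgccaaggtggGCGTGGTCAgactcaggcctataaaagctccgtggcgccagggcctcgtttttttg

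The match begins 56 bases before the RefSeq start and lies on the minus strand, so that the capitals show its reverse complement. GENCODE places the start of Sod1 at position 90220754, near the end of the printed bases. Such a match occurred in 14.0% of 27025 genes with a promoter window, so 1 of 8 is close to that share. It is a description of the sequence and says nothing about binding.

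Sod1 encodes the copper and zinc superoxide dismutase of the cytosol. It was expressed at a higher level in Dp1Tyb hippocampus. Sod1 (ENSMUSG00000022982, chromosome 16, positions 90220754 to 90226329, plus strand, GRCm38) measured 115, 113, 128, 122 and 124 CPM in WT replicates 1 to 5. In Dp1Tyb replicates 1 to 5 it measured 150, 170, 176, 135 and 182 CPM. Every Dp1Tyb library lay above every WT library, although Dp1Tyb replicate 4, at 135 CPM, came close to the highest WT value of 128 CPM.

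Sod1 averaged 120 ± 6.21 CPM in the WT libraries and 162 ± 19.6 CPM in the Dp1Tyb libraries (SD, n = 5 per genotype). The log2 fold change between the genotypes was 0.43 ± 0.073 SE, or 1.348-fold with a 95% interval of 1.209 to 1.503 (edgeR quasi-likelihood test, Benjamini-Hochberg adjusted p = 0.00967). The difference between the means was larger than the SD of either group. Leaving out single libraries gave log2 fold changes from 0.39 to 0.49, with a largest adjusted p of 0.0371 in the same test. Without the 3 libraries of low choroid plexus content the log2 fold change was 0.52 (edgeR, adjusted p = 0.000125).

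**Figure D1:**
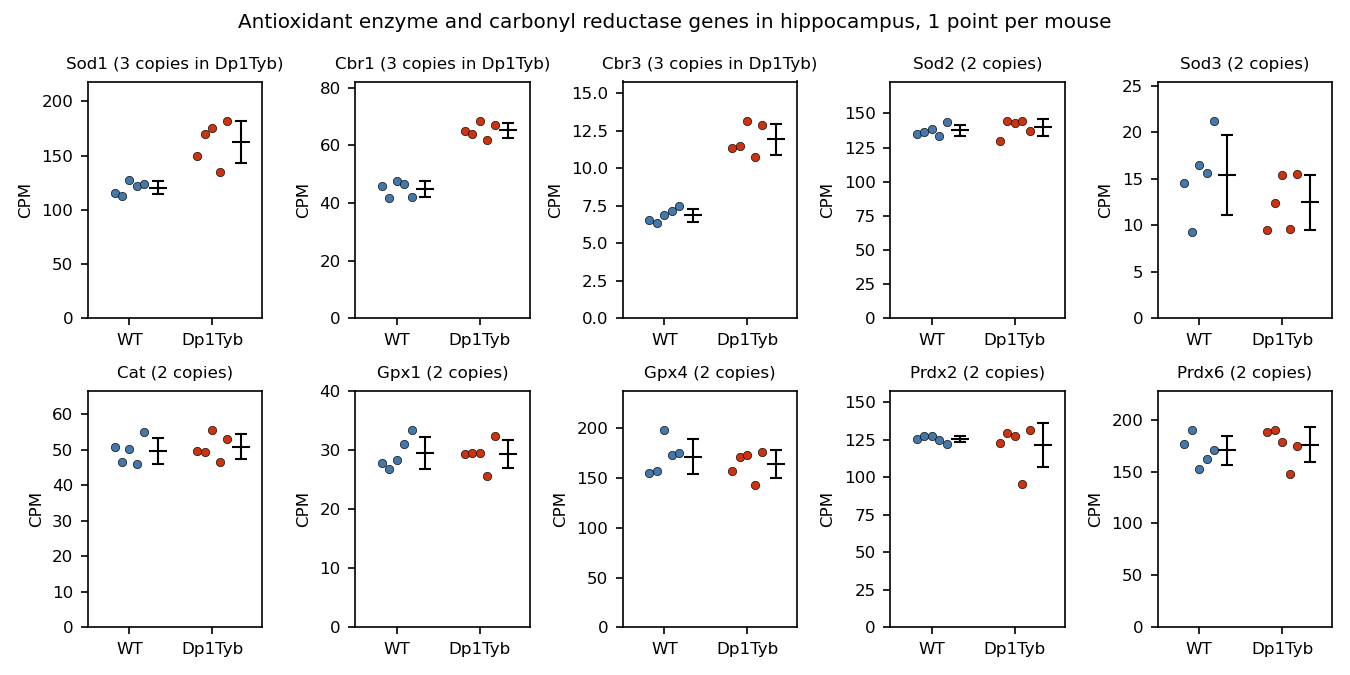
Expression of the 10 genes in CPM (vertical axes, each from 0) in WT and Dp1Tyb hippocampus, with 1 point per mouse and the mean and SD of 5 mice beside the points. The points of Sod1, Cbr1 and Cbr3 do not overlap between the genotypes, whereas those of the other 7 genes do, and the low Dp1Tyb point of Prdx2 at 95.6 CPM is replicate 4.

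Cbr1 encodes the main cytosolic carbonyl reductase, an enzyme with a broad range of substrates that include quinones and prostaglandins. Its expression was also higher in Dp1Tyb. Cbr1 (ENSMUSG00000051483, chromosome 16, positions 93605853 to 93610505, plus strand) measured 46.1, 41.7, 47.6, 46.7 and 42.0 CPM in WT replicates 1 to 5. The values in Dp1Tyb replicates 1 to 5 were 65.0, 64.1, 68.5, 61.7 and 67.1 CPM. The genotypes were well separated: the highest WT library was at 47.6 CPM and the lowest Dp1Tyb library at 61.7 CPM.

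On average Cbr1 reached 44.8 ± 2.76 CPM in the WT group and 65.3 ± 2.62 CPM in the Dp1Tyb group (SD, n = 5 per genotype). This is a log2 fold change of 0.54 ± 0.049 SE, or 1.46-fold with a 95% interval of 1.35 to 1.57 (edgeR, adjusted p = 2.72e-05).

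Cbr3, the neighbouring gene, encodes a carbonyl reductase of similar sequence and narrower activity. It was the least abundant of the duplicated members and showed the largest fold change among them. Cbr3 (ENSMUSG00000022947, chromosome 16, positions 93683215 to 93690990, plus strand) measured 6.59, 6.37, 6.89, 7.14 and 7.46 CPM in WT replicates 1 to 5. In Dp1Tyb replicates 1 to 5 it measured 11.3, 11.5, 13.2, 10.8 and 12.9 CPM. The genotypes did not overlap, and the spread within each was small.

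The means of Cbr3 were 6.89 ± 0.434 CPM among WT and 11.9 ± 1.04 CPM among Dp1Tyb libraries (SD, n = 5 per genotype). The log2 fold change was 0.79 ± 0.081 SE, or 1.73-fold with a 95% interval of 1.53 to 1.95 (edgeR, adjusted p = 9.31e-05). The ratio of 3 copies to 2 is 1.5. The interval of Cbr3 lay just above 1.5-fold, a log2 value of 0.585. That of Cbr1 included it, and that of Sod1 included it only narrowly, with an upper bound of 1.503-fold. Leaving out single libraries gave log2 fold changes of Cbr3 from 0.75 ± 0.083 SE, without Dp1Tyb replicate 3, to 0.82. Whether its level exceeded the copy ratio was not tested. Within libraries, the ratio of Cbr3 to Cbr1 was 0.143 to 0.178 in WT and 0.174 to 0.193 in Dp1Tyb, so that the genotypes overlapped and 3 of 5 Dp1Tyb libraries lay above all WT libraries.

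All 3 duplicated members were thus called higher, where 0.870% of all tested genes and 59.6% of the 114 tested genes of the duplicated region were called higher. Their genotypes did not overlap, as was so, with Dp1Tyb higher, for 2.56% of all tested genes. The same held for their nearest tested neighbours in the region, Tiam1, Scaf4, Setd4 and Dop1b. Ordered from the largest log2 fold change, Cbr3 ranked 12, Cbr1 ranked 52 and Sod1 ranked 75 among the 114 genes, whose median was 0.53. These ranks take no account of the SE of each gene. The log2 intervals of Sod1, 0.27 to 0.59, and of Cbr1, 0.44 to 0.65, both included this median. That of Cbr3, 0.62 to 0.96, lay above it. Whether the members differed in their place within the region was not tested. The plot of fold changes along the region shows the members among their neighbours.

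**Figure D2:**
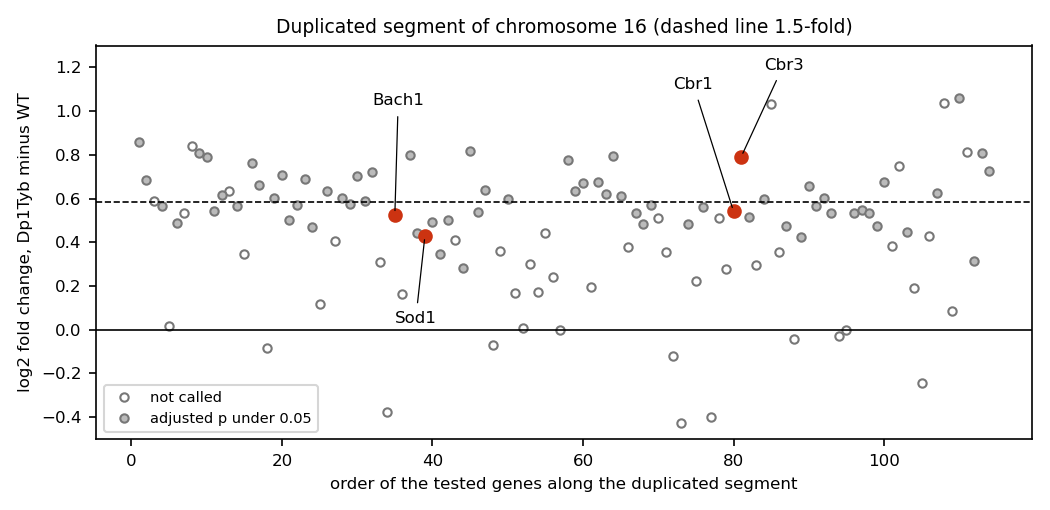
Log2 fold change between Dp1Tyb and WT (vertical axis) of the 114 tested genes of the duplicated region of chromosome 16, in their order along the chromosome (horizontal axis). Filled points are genes called by edgeR, the named genes are in red, the solid line is no change and the dashed line is 1.5-fold. Sod1 at 0.43 and Cbr1 at 0.54 lie below the dashed line and Cbr3 at 0.79 above it.

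The nearest tested genes on either side were also higher in Dp1Tyb. Beside Sod1, the guanine nucleotide exchange factor gene Tiam1 had a log2 fold change of 0.44 ± 0.039 SE (edgeR test, adjusted p = 2.42e-05), close to the value of Sod1 itself. On the other side, Scaf4, which encodes an RNA polymerase II-associated factor, had 0.49 ± 0.057 SE (adjusted p = 0.000364). Scaf4 overlaps the end of Sod1 by 650 bp on the opposite strand. The strand setting used for counting was not given in the sources used here, and reads in this overlap cannot be told apart without it.

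Beside the carbonyl reductase pair, Dop1b rose with a log2 fold change of 0.51 ± 0.051 SE (edgeR test, adjusted p = 6.95e-05). Setd4, on the Cbr1 side, did not pass the threshold. It measured 13.1 to 15.0 CPM in WT and 15.6 to 19.4 CPM in Dp1Tyb, a log2 fold change of 0.28 ± 0.073 SE (edgeR test, adjusted p = 0.0943).

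The genes whose levels followed each duplicated member most closely over the 10 libraries were found by the SD of the log2 ratio of the pair. For Sod1 they were Ifnar2, Atp5j and Pigp, with SDs of 0.086, 0.095 and 0.10, against a median of 0.30 over all tested genes. For Cbr1 they were N6amt1, Usp25 and Vps26c, with SDs of 0.066, 0.075 and 0.079 against a median of 0.33. For Cbr3 they were App, Wrb and Tmem50b, with SDs of 0.11, 0.12 and 0.12 against a median of 0.45. All 9 genes lie in the duplicated region and share with the member both its libraries and the difference in copy number.

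Cbr1 and Cbr3 are similar in sequence, and another copy, the predicted gene Gm5678 (ENSMUSG00000082815, positions 93628097 to 93630451), lies between them. Over 834 coding bases Cbr1 and Gm5678 were identical at 90.4% of positions and Cbr1 and Cbr3 at 77.2%. The stretch of 75 bases, the length of a read, in which Cbr1 and Cbr3 were most alike is shown here to let a reader judge whether reads could be exchanged between them. It covers coding positions 55 to 129, on the plus strand of chromosome 16 in GRCm38, at chr16:93608020-93608094 in Cbr1, chr16:93683379-93683453 in Cbr3 and chr16:93628151-93628225 in Gm5678. Capitals mark bases that differ from Cbr1.
Cbr1: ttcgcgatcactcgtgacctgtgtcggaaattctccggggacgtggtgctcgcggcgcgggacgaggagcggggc
Cbr3: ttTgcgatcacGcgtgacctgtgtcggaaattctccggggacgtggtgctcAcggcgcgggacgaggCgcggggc
Gm5678: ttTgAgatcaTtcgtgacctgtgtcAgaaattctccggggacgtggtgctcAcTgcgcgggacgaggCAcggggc

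Cbr1 and Cbr3 differed at 4 bases of this stretch, and the longest run of identical bases between them was 50. Cbr1 and Gm5678 were most alike in another stretch, coding positions 321 to 395, with 1 difference. Their longest run of identical bases was 69. No stretch of 75 bases in the annotated transcripts of Cbr1 or Cbr3 occurred in a transcript of another gene. Gm5678 itself had between 0 and 13 reads per library and was not tested. For the other members, 1.71% of such stretches of Sod1 and 2.76% of those of Prdx2 occurred in another gene, the respective pseudogenes Gm8566 and Tdpx-ps1, which had at most 3 reads per library. The share was 16.2% for Sod2 and 29.8% for Gpx4, whose values are less certain for this reason, because reads that aligned to several places were discarded.

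Expression of the other superoxide dismutases was not called different. Sod2 encodes the manganese enzyme of the mitochondrial matrix (ENSMUSG00000006818, chromosome 17, positions 13006846 to 13040063). It measured 135, 137, 139, 134 and 144 CPM in WT and 130, 144, 143, 144 and 137 CPM in Dp1Tyb. The values overlapped, with a log2 fold change of 0.02 ± 0.038 SE and a 95% interval of −0.06 to 0.11 (edgeR, adjusted p = 0.818).

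Sod3 encodes the secreted superoxide dismutase (ENSMUSG00000072941, chromosome 5, positions 52363791 to 52371418). It measured 14.5, 9.32, 16.5, 15.6 and 21.2 CPM in WT replicates 1 to 5. In Dp1Tyb replicates 1 to 5 it measured 9.47, 12.4, 15.4, 9.60 and 15.5 CPM. Relative to its mean, Sod3 varied more between mice than any other member, and the genotypes overlapped.

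The log2 fold change of Sod3 was −0.32 ± 0.20 SE, with a 95% interval of −0.74 to 0.11 (edgeR, adjusted p = 0.486). Its 3 lowest libraries, WT replicate 2, Dp1Tyb replicate 1 and Dp1Tyb replicate 4, were the 3 with the least Ttr, the transthyretin gene that defines choroid plexus epithelium. Ttr was at 362, 12.9 and 15.8 CPM in these libraries and between 1293 and 4888 CPM in the others. Without them the log2 fold change of Sod3 was −0.24 ± 0.13 SE (edgeR test, adjusted p = 0.536). The peroxidase gene Gpx8, picked out after its values were seen, was also lowest in the same 3 libraries, at 2.87, 2.84 and 3.64 CPM against 4.93 to 11.7 CPM in the others.

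**Figure D3:**
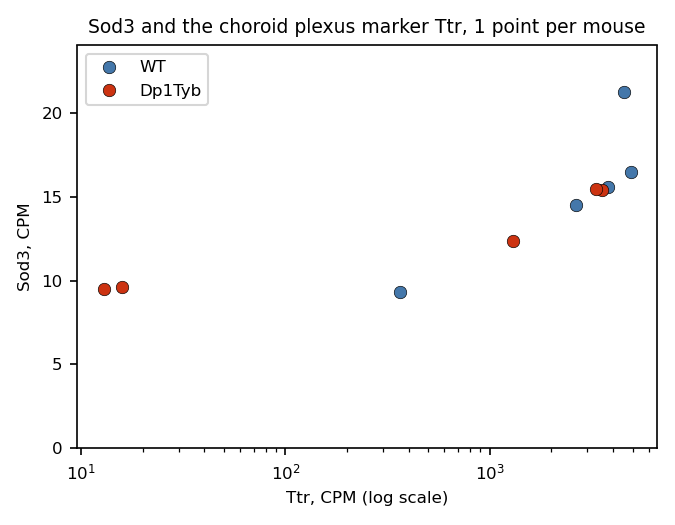
Sod3 expression (vertical axis, CPM) against expression of the choroid plexus gene Ttr (horizontal axis, CPM, log scale), 1 point per mouse. The 3 libraries with Ttr at 362 CPM or less, 1 WT and 2 Dp1Tyb, have Sod3 between 9.32 and 9.60 CPM, and the others lie between 12.4 and 21.2 CPM.

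Catalase, encoded by Cat (ENSMUSG00000027187, chromosome 2, positions 103453849 to 103485160, minus strand), breaks down hydrogen peroxide in peroxisomes. It measured 50.9, 46.6, 50.4, 46.0 and 55.0 CPM in WT and 49.8, 49.4, 55.6, 46.7 and 53.1 CPM in Dp1Tyb. The values overlapped, with a log2 fold change of 0.03 ± 0.060 SE and a 95% interval of −0.10 to 0.16 (edgeR, adjusted p = 0.838).

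Glutathione peroxidases reduce peroxides at the expense of glutathione. Gpx1, the gene of the main cytosolic enzyme (ENSMUSG00000063856, chromosome 9, positions 108338903 to 108340343), measured 27.9, 26.8, 28.3, 31.0 and 33.4 CPM in WT and 29.4, 29.5, 29.6, 25.7 and 32.4 CPM in Dp1Tyb. Its log2 fold change was −0.01 ± 0.072 SE, with a 95% interval of −0.17 to 0.14 (edgeR, adjusted p = 0.963). The genotypes covered nearly the same range.

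Gpx4, the gene of the enzyme that reduces lipid hydroperoxides in membranes (ENSMUSG00000075706, chromosome 10, positions 80047166 to 80056439), measured 155, 157, 198, 173 and 175 CPM in WT and 157, 172, 173, 143 and 177 CPM in Dp1Tyb. The log2 fold change of Gpx4 was −0.06 ± 0.072 SE, with a 95% interval of −0.22 to 0.09 (edgeR, adjusted p = 0.717). WT replicate 3 was the highest library and Dp1Tyb replicate 4 the lowest, and the rest overlapped.

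Peroxiredoxins reduce peroxides through a reactive cysteine. Prdx2, a cytosolic peroxiredoxin abundant in neurons (ENSMUSG00000005161, chromosome 8, positions 84969587 to 84974834), measured 125, 127, 128, 125 and 122 CPM in WT and 123, 130, 128, 95.6 and 132 CPM in Dp1Tyb. All libraries but Dp1Tyb replicate 4 lay within 122 to 132 CPM. The log2 fold change was −0.05 ± 0.071 SE, with a 95% interval of −0.20 to 0.11 (edgeR, adjusted p = 0.787). Prdx2 overlaps Junb by 351 bp and Rnaseh2a by 181 bp, both on the opposite strand.

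Prdx6, a peroxiredoxin that also has phospholipase activity (ENSMUSG00000026701, chromosome 1, positions 161240112 to 161251219, minus strand), measured 177, 190, 153, 162 and 171 CPM in WT and 188, 190, 178, 148 and 174 CPM in Dp1Tyb. The genotypes overlapped over nearly the whole range. The log2 fold change was 0.04 ± 0.070 SE, with a 95% interval of −0.11 to 0.20 (edgeR, adjusted p = 0.807).

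None of the 7 members present in 2 copies was called, in either direction, where 0.718% of tested genes outside the duplicated region were called. None of the 7 had an unadjusted p under 0.05 either, a level that 14.0% of those genes reached. DESeq2 and limma-voom called none of them, where DESeq2 called 3.20% of all genes with an adjusted p. In the main edgeR fit the 95% intervals of the 7 all ended below 1.5-fold, and the highest upper bound was 1.15-fold, in Prdx6. Increases of the size of an extra copy were therefore outside the intervals of all 7. Downwards the intervals were wider in some genes, and that of Sod3 reached 0.600-fold. Small differences were not detectable with 5 mice per genotype. Over the set as a whole, 3 of the 10 genes were called, where 1.11% of all tested genes were called in either direction, and the 3 were the duplicated ones.

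**Figure D4:**
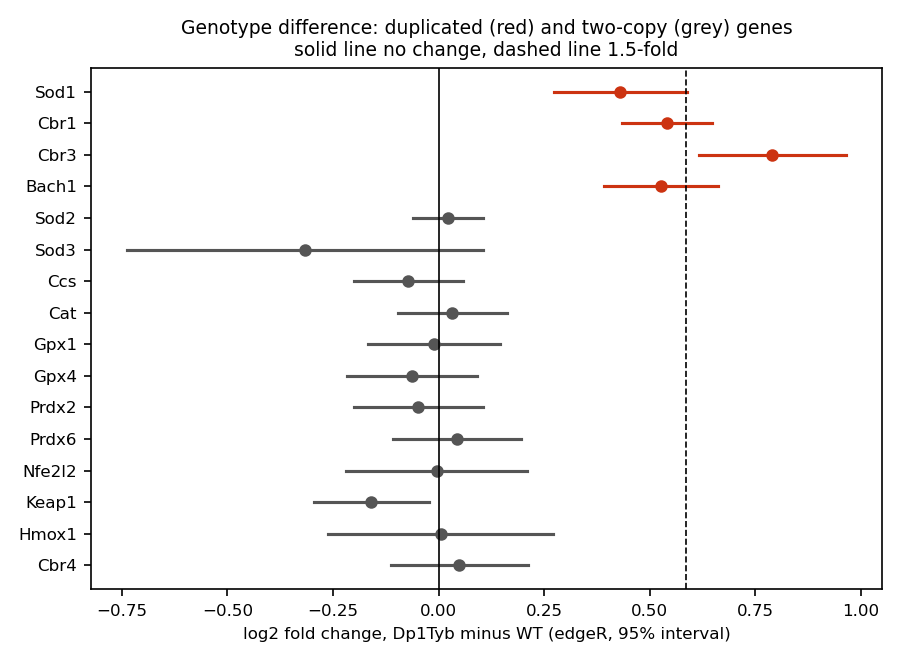
Log2 fold change between Dp1Tyb and WT (horizontal axis) with its 95% interval from edgeR for the 10 genes and for 6 further genes of the pathway. Genes of the duplicated region are in red and genes present in 2 copies in grey, with a solid line at no change and a dashed line at 1.5-fold. The intervals of the 4 red genes lie right of 0, and all grey intervals end left of the dashed line.

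Since SOD1 makes the peroxide that the other enzymes remove, the level of Sod1 relative to each of their genes was described in each library. The ratio of Sod1 to Cat was 2.25 to 2.65 in WT and 2.88 to 3.43 in Dp1Tyb. The ratio to Gpx1 was 3.71 to 4.52 in WT and 5.10 to 5.94 in Dp1Tyb. For Gpx4 the ratios were 0.644 to 0.741 and 0.941 to 1.03. These ratios did not overlap between the genotypes in any of the 3 cases.

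The ratio of Sod1 to Prdx2 was 0.886 to 1.02 in WT and 1.22 to 1.41 in Dp1Tyb, again without overlap. Dp1Tyb replicate 4, lowest of its group in both genes, had the highest of these ratios. The ratio to Prdx6 was 0.595 to 0.836 in WT and 0.797 to 1.04 in Dp1Tyb, and here 4 of 5 Dp1Tyb libraries lay above all WT libraries. Relative to Sod2, the ratios were 0.826 to 0.921 and 0.932 to 1.33, so that Dp1Tyb replicate 4 lay just above the WT range. These are ratios of CPM, which are not corrected for gene length, and they carry no test because they restate the higher Sod1 values.

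**Figure D5:**
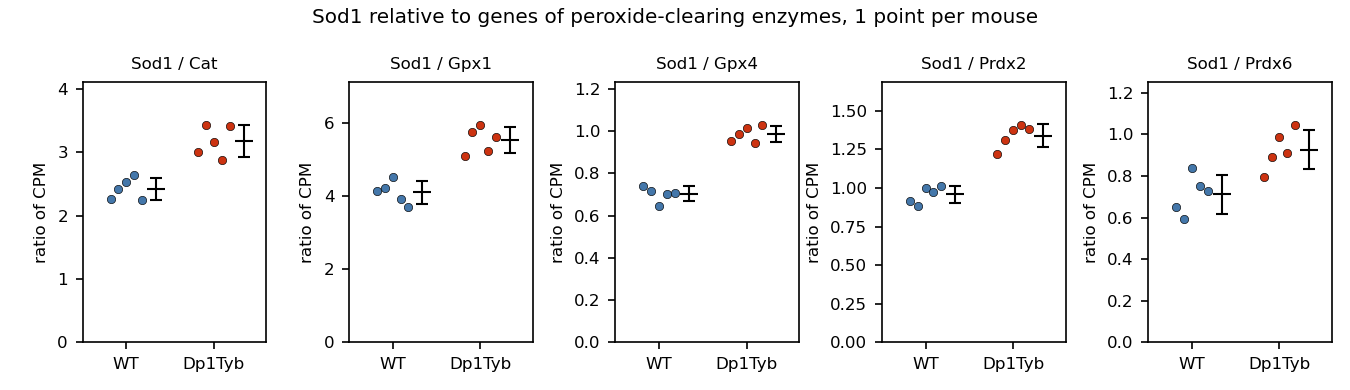
Ratio of the CPM of Sod1 to that of each of 5 genes of peroxide-clearing enzymes (vertical axes, each from 0) in WT and Dp1Tyb hippocampus, with 1 point per mouse and the mean and SD of 5 mice. The genotypes do not overlap for Cat, Gpx1, Gpx4 and Prdx2, and overlap for Prdx6.

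Dp1Tyb replicate 4 was the lowest library of its group in 8 of the 10 genes. Its log2 level lay below the other Dp1Tyb libraries by a median difference of −0.24 over the members. Over 1001 tested genes with less than 1000 bp of exon, none of them a member, the corresponding difference was −0.095. It was −0.044 over 9488 genes of 1000 to 5000 bp, which include all members but Sod2. Over 6615 genes with more than 5000 bp it was 0.050. Without this library the log2 fold change of Sod1 was 0.49 ± 0.056 SE (edgeR test, adjusted p = 0.000455).

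Levels were compared between genes only after division by transcript length, as RPKM (CPM per kilobase of transcript). Using the longest protein-coding transcript of each gene, Sod1 was at 188 ± 9.69 RPKM in WT hippocampus and Gpx4 at 173 ± 17.5 RPKM (SD, n = 5), and these ranges overlapped. Prdx2 at 77.9 ± 1.37 and Prdx6 at 71.4 ± 5.93 RPKM followed, also with overlapping ranges. Below them the order of the means was Cbr1, Gpx1, Sod2, Cat, Cbr3 and Sod3. Of these, only Cbr3, at 5.89 ± 0.371 RPKM, and Sod3, at 4.13 ± 1.14 RPKM, overlapped with their neighbour in the order. In Dp1Tyb, Sod1 reached 253 ± 30.5 RPKM and Gpx4 165 ± 14.1 RPKM (SD, n = 5).

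The place of Sod1 depended on the length used. A long transcript with a retained intron gives Sod1 3970 bp of exon in the annotation, against 641 bp in the coding transcript. With all annotated exons as the length, Gpx4 was first in WT at 99.6 RPKM and Sod1 followed Prdx2 and Prdx6 at 30.3 RPKM. Fold changes between genotypes do not depend on this choice.

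The wider pathway was described from 9 lists of genes for superoxide dismutation, peroxide clearance, thioredoxin, glutathione, NADPH supply, NRF2 regulation, carbonyl reduction, glutathione S-transferases and oxidant sources. Of their 126 genes, 116 were tested and 4 were called higher in Dp1Tyb, with none called lower. The 4 were Sod1, Cbr1, Cbr3 and Bach1, all in the duplicated region. Of 105 tested genes that were present in 2 copies and were not members, the main edgeR fit called 0, limma-voom called 0 and DESeq2 called 1. In the main edgeR fit, 7 higher and 7 lower genes had an unadjusted p under 0.05. Their share, 13.3%, is close to the 14.0% of all tested genes outside the region given above. The median log2 fold change of these genes, −0.018, can be read beside that of the whole genome outside the region, −0.0049, and 103 of the 105 intervals ended below 1.5-fold.

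Bach1, which encodes the repressor of heme oxygenase and other NRF2 targets, was higher in Dp1Tyb (ENSMUSG00000025612, chromosome 16, positions 87698945 to 87733346). It measured 13.9, 16.2, 14.9, 15.5 and 15.7 CPM in WT and 21.2, 23.8, 20.6, 21.7 and 22.5 CPM in Dp1Tyb. The genotypes did not overlap, and the log2 fold change was 0.53 ± 0.062 SE (edgeR test, adjusted p = 0.000397). Hmox1, the heme oxygenase gene that BACH1 represses, measured 4.60 to 6.02 CPM in WT and 4.24 to 6.16 CPM in Dp1Tyb. Its log2 fold change was 0.0049 ± 0.12 SE (edgeR test, adjusted p = 0.991), with a 95% interval of −0.26 to 0.27.

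Nfe2l2, the gene of NRF2, had a log2 fold change of −0.0038 ± 0.099 SE (edgeR test, adjusted p = 0.991). Keap1, which encodes the adaptor that targets NRF2 for degradation, was at 44.9 to 55.3 CPM in WT and 41.4 to 49.3 CPM in Dp1Tyb. Its log2 fold change of −0.16 ± 0.063 SE had an unadjusted p of 0.0259 and did not pass after adjustment (edgeR, adjusted p = 0.283). Of the 17 tested genes of the NRF2 list outside the duplicated region, none was called, where 0.718% of all tested genes outside it were, so this count says nothing particular about the list.

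Ccs, the chaperone gene whose product loads copper into SOD1, did not follow Sod1. It measured 14.4 to 15.6 CPM in WT and 13.5 to 15.4 CPM in Dp1Tyb, with a log2 fold change of −0.07 ± 0.060 SE (edgeR test, adjusted p = 0.609) and a 95% interval of −0.20 to 0.06. Cbr4, a mitochondrial carbonyl reductase gene outside the region, had a log2 fold change of 0.05 ± 0.075 SE (edgeR test, adjusted p = 0.795). Among the 17 tested genes of the carbonyl reduction list that were neither members nor duplicated, none was called either, which is again close to the background share of 0.718%. An unadjusted edgeR p under 0.05 was reached by 3 higher and 1 lower of these genes, or 23.5%. The share of tested genes outside the duplicated region was 14.0%, and the difference was not tested.

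The genes of smallest unadjusted p in each list were small in effect, and none passed after adjustment in the main edgeR fit. In the thioredoxin list they were Sesn1, which encodes a stress-induced sestrin, with a log2 fold change of −0.14 ± 0.053 SE (edgeR test, adjusted p = 0.270), and Txnip, the thioredoxin inhibitor gene, with −0.28 ± 0.13 SE (adjusted p = 0.327). Both differed in the direction of lower values in Dp1Tyb. In the NADPH list they were Idh1, the cytosolic isocitrate dehydrogenase gene, with 0.16 ± 0.057 SE (edgeR test, adjusted p = 0.244), and G6pdx, the glucose-6-phosphate dehydrogenase gene, with 0.12 ± 0.056 SE (adjusted p = 0.343). Here 4 of 5 Dp1Tyb libraries lay above all WT libraries in each gene.

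In the carbonyl reduction list, the aldo-keto reductase gene Akr1e1 had a log2 fold change of 0.15 ± 0.055 SE (edgeR test, adjusted p = 0.232) and the mitochondrial aldehyde dehydrogenase gene Aldh2 had −0.22 ± 0.090 SE (adjusted p = 0.297). The glutathione S-transferase gene Gstm5 had −0.23 ± 0.10 SE (edgeR test, adjusted p = 0.329). Its lowest value, 58.4 CPM, was in Dp1Tyb replicate 4, and the other libraries lay between 81.7 and 101 CPM. No gene of the lists for peroxide clearance or glutathione synthesis had an unadjusted p under 0.05.

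Among oxidant sources, the aldehyde oxidase gene Aox1 had a log2 fold change of −0.26 ± 0.10 SE (edgeR test, adjusted p = 0.262). It measured 15.0 to 18.8 CPM in WT and 12.1 to 17.2 CPM in Dp1Tyb, so that the genotypes overlapped.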

How the data were processed

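RNA was taken from the whole hippocampus of 5 Dp1Tyb and 5 WT mice, grouped by the genotype in their labels. According to the methods and labels, poly(A) RNA was made into stranded libraries and sequenced from both ends in reads of 75 bases, which the authors trimmed with Trim Galore and mapped to GRCm38 with TopHat2 2.0.12. Reads that aligned to several places were discarded, which lowers the values of genes with near-identical copies, and reads per gene were counted with HTSeq. The annotation release and strand setting were not given in the sources used here.

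The values used here are the deposited raw counts of reads for 43629 Ensembl genes, without normalization by the authors. A table of normalized values and the authors' own DESeq2 1.6.3 comparison (fold changes and p-values) were not used. Symbols, positions and exon lengths came from GENCODE M21, which matched 42462 identifiers.

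Counts of all 10 libraries were fitted in edgeR 4.0.16 (R 4.3.3) with TMM scaling, filterByExpr (17237 genes kept), the quasi-likelihood F-test and Benjamini-Hochberg adjustment over all tested genes. Genes with an adjusted p under 0.05 were called. The SE is the one that gives the test statistic, and intervals are not adjusted for the number of genes. Scripts were tested on simulated data. Each library differed from every other by more than sampling noise, with a smallest chi-square per degree of freedom of 4.68 over 45 pairs. RPKM is CPM divided by length. Same-numbered libraries of the genotypes did not deviate together, so the numbers were not taken as pairs. The labels give no batch or date.

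The members and gene lists were chosen with earlier results of these data known. Named genes were the 10 members, Ccs, Nfe2l2, Keap1, Bach1, Hmox1 and Cbr4, every called gene of the pathway lists, up to 2 others per list with the smallest unadjusted p under 0.05, the nearest tested neighbours, and the 3 genes closest in pattern to each duplicated member. A result of the pathway lists that falls under this rule is not reported here. Gpx8, Gfap and Ttr were named after their values were seen. Alternatives were DESeq2 1.42.0, limma-voom 3.58.1, other scalings, no filter, a replicate block and each library left out in turn.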

Additional observations from a re-analysis of the deposited data

Results flagged for a closer look

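In the Dp1Tyb group, Prdx2 in replicate 4 stood apart at 95.6 CPM, against 123 to 132 CPM in the other Dp1Tyb libraries. The gap to the nearest library was 0.761 of the range of the group, above Dixon's critical value of 0.71 for 5 samples. Of the 20 groups of 5 values examined, 1 stood apart, and chance gives 1. Without this library the log2 fold change of Prdx2 was 0.025 in place of −0.05, and neither passed the threshold.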

How the results depend on the processing

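All 17 alternatives called 3 of the 10 members, the 3 duplicated ones, and 0 of the 7 others. Among 2-copy pathway genes that were not members, the number called was 0 in the main edgeR fit and 1 with DESeq2. It was also 1 in edgeR with TMM factors computed without the duplicated region and in edgeR with the replicate block. Leaving out single libraries gave 0 in every fit. The block fit called 315 of all tested genes in place of 191; correlations of same-numbered libraries, −0.0686 to 0.277, did not pair them, and the block changed no call of a member. Over all tested genes, DESeq2 called 507, leaving out single libraries 105 to 218, and leaving out the 3 libraries of low choroid plexus content, an alternative chosen after seeing the data, 108. Some log2 fold changes near 0 changed sign, none past the threshold. With single libraries left out, Cat ranged from −0.0013 (Dp1Tyb replicate 3 left out) to 0.070, and Prdx2 from −0.078 to 0.025 (Dp1Tyb replicate 4 left out). Gpx1 ranged from −0.048 to 0.037 and was above 0 when WT replicate 5 (0.037), WT replicate 4 (0.0092) or Dp1Tyb replicate 4 (0.031) was omitted. Without the low choroid plexus libraries Gpx1 was 0.0075 and Prdx2 0.045. Prdx6 kept its sign and was 0.12 ± 0.058 SE without them (edgeR, adjusted p = 0.489), in place of 0.044. The cause of these changes was not tested. The transcript length used for RPKM, also added after seeing the data, moved RPKM levels and their order, with Sod1 in WT at 30.3 RPKM over all annotated exons and at 188 RPKM over the longest coding transcript, and does not enter the fold changes. In the main edgeR fit, with 5 mice per genotype, 95% intervals of the 2-copy members reached up to 1.15-fold in Prdx6 and down to 0.600-fold in Sod3. Differences inside the interval of a gene were not resolved.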
